A study of Mus musculus with 14 samples.

Results

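The 3 natriuretic peptide genes Nppa, Nppb and Nppc, the 3 receptor genes Npr1, Npr2 and Npr3, and Corin were followed across heart and hippocampus of young and adult mice. Members were all probe sets, groups of short array probes read as a single value, that were annotated with 1 of these 7 genes and no other. There were 9 such probe sets of 45037 tested, 3 of them for Npr3 and 1 for each other gene, and 0 probe sets named a member together with another gene. Expression was measured in bulk RNA on 14 Affymetrix arrays of a single colour. All mice were of the strain C57BL/6, and no treatment was given. Pup heart and pup hippocampus were dissected at 7 days of age, with 3 biological replicates and 3 arrays a tissue, and the sex of the pups was not given. Adult heart and adult hippocampus were RNA of male mice of 10 weeks, bought from a supplier, with 2 biological replicates of 2 technical arrays each by the sample titles. The source names and the text of the study instead count all 4 adult arrays of a tissue as biological replicates, and where that reading changed a call it is given beside the value. The labels do not say that the adult replicates were separate animals, so p-values with adults measure a spread that may be technical. Age cannot be told apart from RNA source, preparation and hybridization.

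Natriuretic peptides are hormones that lower blood volume and pressure. Atrial cardiomyocytes are the main source of Nppa (atrial natriuretic peptide, ANP) in the adult, the fetal ventricle also makes it, and ventricular Nppa is known to decline around birth. Corin, a membrane protease of cardiomyocytes, cuts pro-ANP into the active hormone. Npr1 and Npr2 are guanylyl cyclases that make the second messenger cGMP when bound by ANP and B-type peptide (Npr1) or by C-type peptide (Npr2), and Npr3 has no cyclase domain and clears the peptides from the circulation.

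Nppb and Nppa are neighbours on the mouse genome, with 0 other genes starting between them in RefSeq. The 250 bases before the Nppa start and 30 bases before the start of Nppb in the promoter table, at chr4:148000472-148000721 and chr4:147985801-147985830 of GRCm38.p6 (RefSeq, plus strand), are shown because Nppa and Nppb were both called in the comparison of pup tissues, and because their promoters are known targets of GATA4 and NKX2-5. A GATA core has the letters GATAA and is marked in capitals on either strand. An NKX2-5 core has the letters AAGTG and is also in capitals. Each motif was searched on both strands, and the marked matches do not overlap.
Nppa, 250 bases before the start: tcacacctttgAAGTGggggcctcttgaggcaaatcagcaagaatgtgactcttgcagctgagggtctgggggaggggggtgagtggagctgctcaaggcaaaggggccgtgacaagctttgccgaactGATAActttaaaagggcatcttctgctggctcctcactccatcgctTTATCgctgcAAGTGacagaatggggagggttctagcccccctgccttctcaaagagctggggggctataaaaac
Nppb, 30 bases: cagctGATAAatcagaGATAAccccacccc
The Nppa window held 2 GATA cores, 121 and 75 bases before the start, and 2 NKX2-5 cores, 239 and 65 bases before it. The Nppb window held 2 GATA cores, 94 and 83 bases before its start, and 0 NKX2-5 cores. The start of Nppb differs within RefSeq: its gene entry begins upstream of the 30 bases, at base 147985786, so in the longest model they lie inside the gene. GATAA stood in 22.6% and AAGTG in 40.7% of 32851 RefSeq promoters of the same length, so a match is common and is a description of these letters only. In the windows of Nppc, Npr1, Npr2, Npr3 and Corin neither motif was found.

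All values are log2 expression values as deposited, differences are on the log2 scale, and a probe set was called at an adjusted p under 0.05 in limma. Array medians lay between 8.73 and 8.98. The 18 probe sets of the hybridization controls averaged 13.16 in pup heart and 13.15 in pup hippocampus, but 10.73 in adult heart and 10.80 in adult hippocampus, and their part in the age differences was not tested. Nppa in pup heart replicate 1 (15.30) lay close to the highest value of any array, 15.998, and Npr2 was high in every sample (13.96 to 14.98). No background level was set for dim probe sets such as Nppc. Differences of such high or dim values are not exact. Heart and hippocampus labels were checked with marker genes. Of 15 cardiomyocyte markers, 13 were higher in heart than in hippocampus in pups and 12 in adults. Of 14 neuron markers, 6 were lower in heart at each age, among them Nefl (neurofilament light chain, -6.64 in pups and -5.37 in adults), and 1, Prox1, was higher in adult heart. The mean of the neuron markers was 10.78 to 11.14 in pup heart, 10.90 to 11.03 in adult heart, 12.96 to 13.00 in pup hippocampus and 12.35 to 12.61 in adult hippocampus.

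**Figure D1:**
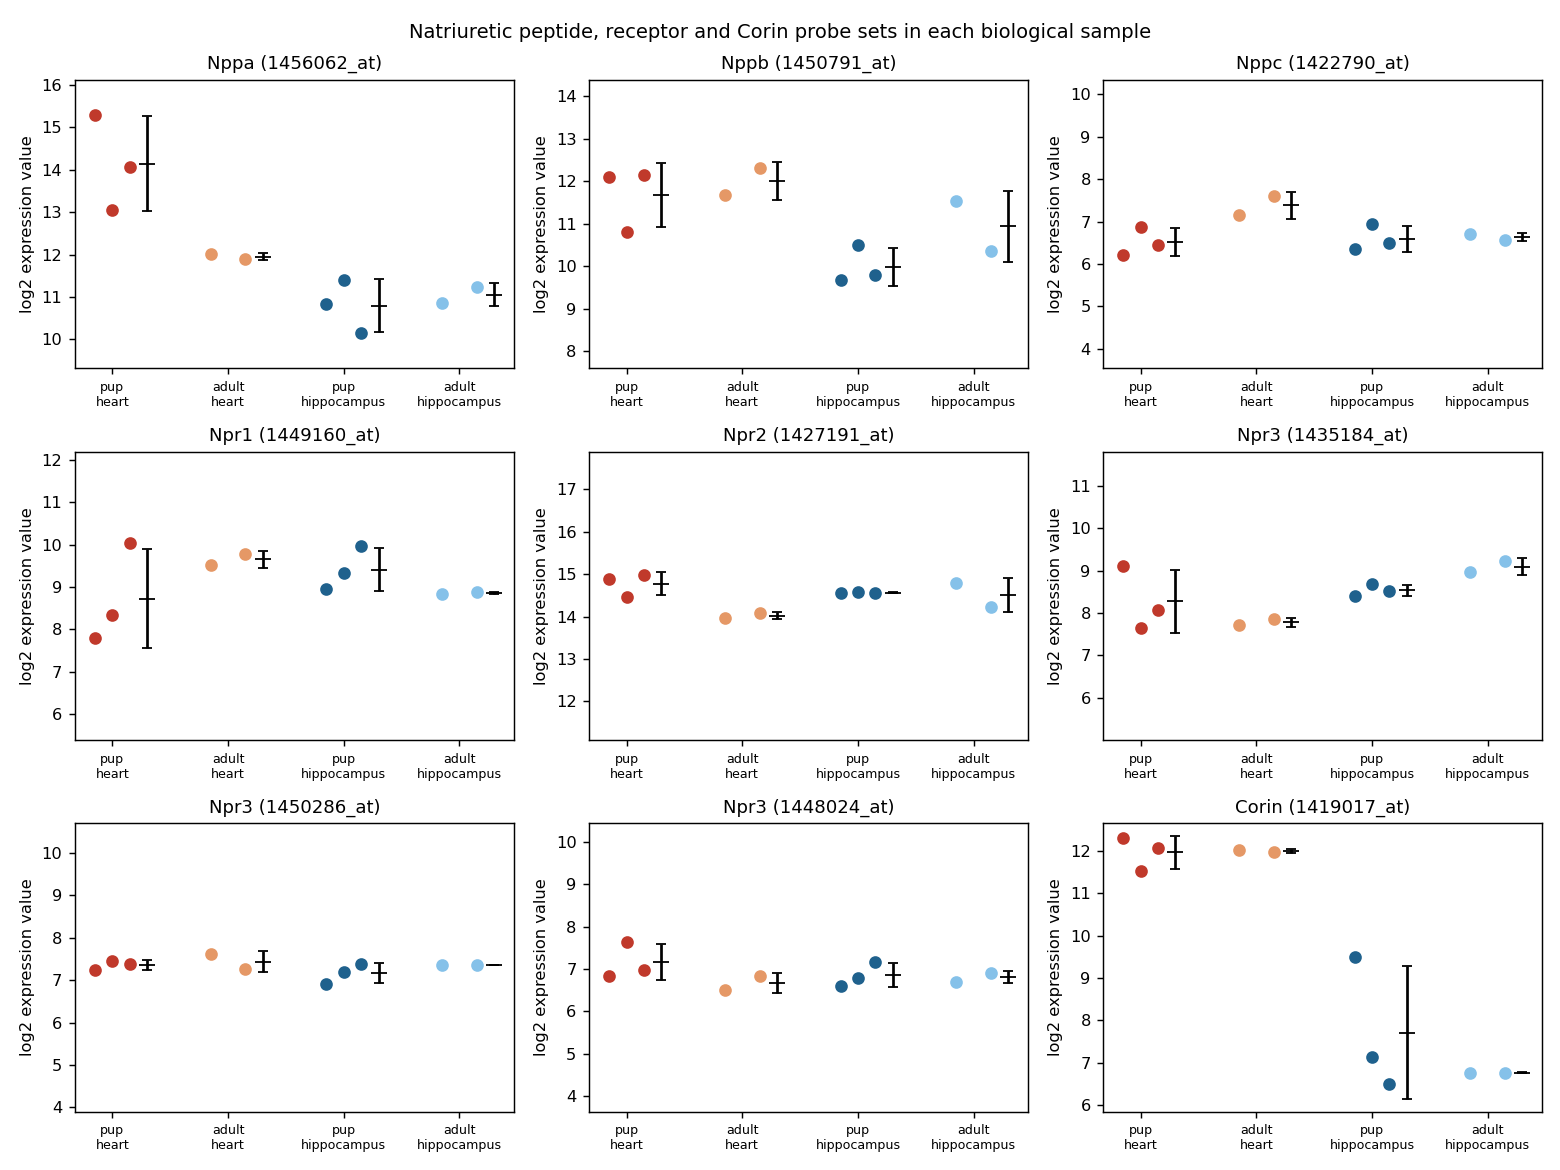
Log2 expression value (y axis) of the 9 member probe sets in each biological sample, by group (x axis); points are samples in replicate order, and the bar beside them is the mean with its SD (n = 3 in pups, n = 2 in adults). Every panel spans the same log2 range around its own values, so heights are not compared between probe sets. Nppa stood highest in the 3 pup hearts (13.06 to 15.30) and Corin was near 12 in all 5 hearts.

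Nppa was higher in pup heart than in pup hippocampus, and it was lower in adult heart than in pup heart. In pup heart the log2 expression value of probe set 1456062_at was 15.30, 13.06 and 14.05, and in adult heart it was 12.01 and 11.90. In hippocampus it was 10.83, 11.39 and 10.15 in pups and 10.86 and 11.24 in adults. The 3 pup hearts lay above all 7 other samples, with replicate 1 highest and a wide spread of 1.12 (SD, n = 3), while the adult hearts differed little (SD 0.08, n = 2) and stood just above the hippocampus samples.

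In heart, Nppa fell by 2.19 from pup to adult, which is 4.55-fold (SE 0.57, 95% interval -3.47 to -0.90, limma adjusted p = 0.0256). It was the only 1 of the 9 member probe sets called in this comparison, where 20.0% of all probe sets were called, so the share of members was not above the background. The call was lost without pup heart replicate 3 (adjusted p = 0.0503), without adult heart replicate 1 (0.119) or without adult heart replicate 2 (0.126), and in a fit of the 2 heart groups alone (0.0732). Without pup heart replicate 1, the highest sample, the difference was -1.60.

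In hippocampus, Nppa differed by 0.26 between ages, with an interval from -1.03 to 1.54 and an adjusted p of 0.798. The interaction, by how much the age difference of heart exceeded that of hippocampus, was -2.44 with an interval from -4.26 to -0.63, and it did not pass after adjustment (adjusted p = 0.128). It passed without pup heart replicate 2 (-2.98, adjusted p = 0.0388) and with the 4 adult arrays as replicates (adjusted p = 0.0206). Different age differences in the 2 tissues were therefore not shown for Nppa by the test over all samples.

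Between pup tissues, Nppa was 3.35 higher in heart than in hippocampus, or 10.2-fold (SE 0.51, interval 2.20 to 4.50, adjusted p = 0.00186). Between adult tissues the difference was 0.90, with an interval from -0.50 to 2.31 and an adjusted p of 0.346, although neither adult heart overlapped adult hippocampus. In a fit of the 2 adult groups alone it passed (adjusted p = 0.0449). In the order of levels, pup heart and adult heart differed beyond their spread, whereas the difference between adult heart and adult hippocampus, and that between adult and pup hippocampus, did not pass. Adult heart was not tested against pup hippocampus, and their samples did not overlap.

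Markers of atrium and ventricle were read beside Nppa, since the amount of atrium in each heart sample was not recorded. In bulk tissue, fewer cells of a type and less RNA per cell cannot be told apart. Myl7, the atrial light chain of myosin, was 12.82, 11.05 and 11.01 in pup heart and 10.15 and 9.97 in adult heart, and Sln (sarcolipin, an atrial regulator of the calcium pump) was 13.63, 10.05 and 10.22 in pup heart and 10.36 and 10.63 in adult heart. Pup heart replicate 1, highest for Nppa, was also highest for both of these genes. Other genes did not share this order: Kcnj5 (9.97, 11.93 and 11.08) and Kcna5 (7.36, 7.47 and 8.16) were lowest in pup heart replicate 1. The mean of the 15 atrial markers was 10.88, 10.59 and 10.80 in the 3 pup hearts. Myl7 was lower in adult heart (-1.57, adjusted p = 0.0493).
Of 15 measured atrial markers, 2 were higher and 3 lower in adult heart, with a median difference of 0.03 beside 0.09 over all genes. Against hippocampus, 4 of the 15 were higher and 1 was lower in pup heart, and 5 were higher and 1 lower in adult heart. Most probe sets of this list thus did not tell heart from hippocampus, so the list is a limited guide to the amount of atrium. The mean of the atrial markers was 10.59 to 10.88 in pup heart, 10.62 to 10.63 in adult heart, 9.47 to 9.97 in pup hippocampus and 9.56 to 9.71 in adult hippocampus. Of 10 ventricular markers, 1 was higher and 2 were lower in adult heart, and the mean of the list was 11.72 to 12.16 in pup heart and 11.42 to 11.52 in adult heart. Of 15 markers shared by cardiomyocytes, 7 were lower and 0 higher in adult heart, with a median difference of -1.21. Of 10 fibroblast markers 6 were lower and 0 higher, with a list mean of 13.08 to 13.61 in pup heart and of 11.04 in both adult hearts. The part of these cells in the Nppa difference was not tested.

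Corin had the largest difference between heart and hippocampus among the 9 member probe sets at both ages, although differences were not tested between probe sets. Its log2 expression value (1419017_at) was 12.30, 11.53 and 12.06 in pup heart and 12.02 and 11.96 in adult heart. It was 9.49, 7.13 and 6.51 in pup hippocampus and 6.76 and 6.77 in adult hippocampus. All 5 hearts stood above all 5 hippocampus samples, and pup hippocampus replicate 1 was well above the other hippocampus samples.

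Corin was 4.26 higher in heart in pups, or 19.1-fold (SE 0.63, interval 2.86 to 5.66, limma adjusted p = 0.00144). In adults it was 5.23 higher, or 37.4-fold (SE 0.77, interval 3.51 to 6.94, adjusted p = 0.00166). The mean of adult hippocampus stood at the 10.9 percentile of all probe sets and was not set against background, so the fold is as measured and may be a lower bound. Between ages the difference was 0.03 in heart (interval -1.54 to 1.59, adjusted p = 0.984) and -0.94 in hippocampus (interval -2.51 to 0.62, adjusted p = 0.395), neither of which passed. The interaction was 0.97 with an interval from -1.24 to 3.18.

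Pup hippocampus replicate 1 was also highest among hippocampus samples for cardiomyocyte markers. The mean of the 15 markers was 10.63, 9.76 and 9.18 in pup hippocampus and 9.11 and 8.96 in adult hippocampus, beside 14.14 to 14.49 in pup heart and 13.06 to 13.29 in adult heart. Actc1, cardiac actin, was 14.76, 12.49 and 10.31 in pup hippocampus, and Myh6, the adult cardiac myosin heavy chain, was 11.68, 9.76 and 8.85. Corin followed the order of Actc1 and Myh6 in these 3 samples. Not all 15 markers did: Mybpc3 (14.53, 14.95 and 13.70), Ryr2 (9.90, 10.63 and 9.35) and Fabp3 (12.22, 12.53 and 12.08) were highest in replicate 2. Casq2 (10.38, 9.61 and 10.66) was highest in replicate 3. The source of these transcripts was not tested. Without pup hippocampus replicate 1 the Corin difference between pup tissues was 5.15.

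**Figure D2:**
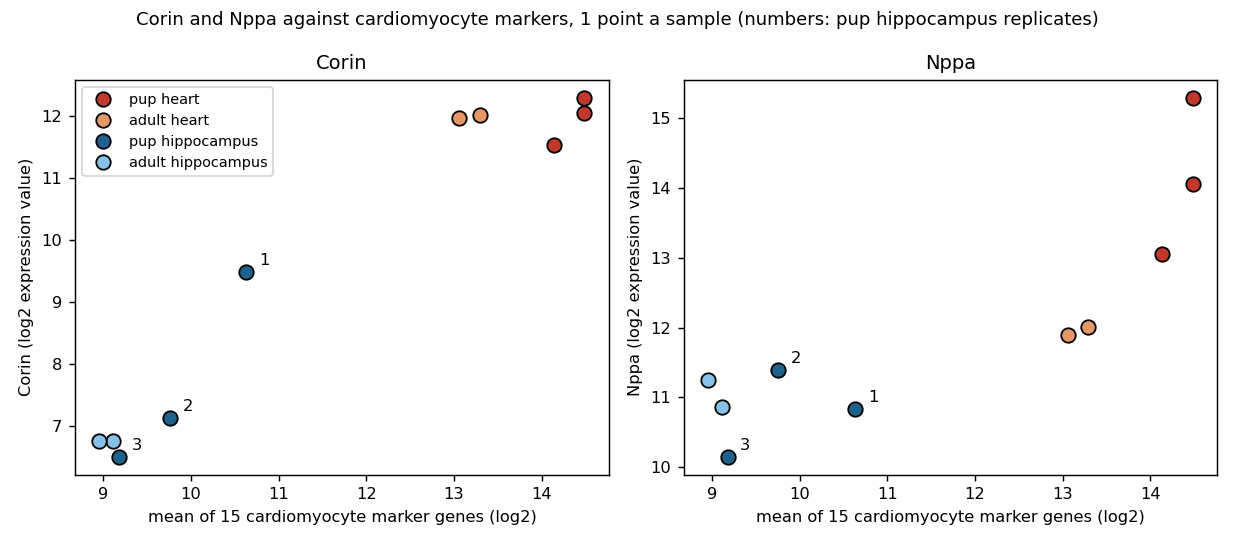
Log2 expression value of Corin (left) and Nppa (right) on the y axis against the mean log2 value of 15 cardiomyocyte marker genes (x axis), 1 point for each of the 10 samples, coloured by group, with the pup hippocampus replicates numbered. Pup hippocampus replicate 1 lies to the right of the other hippocampus samples (10.63) and above them for Corin (9.49), but not for Nppa (10.83).

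Nppb, which encodes B-type natriuretic peptide, was higher in pup heart than in pup hippocampus. Its log2 expression value (1450791_at) was 12.09, 10.80 and 12.14 in pup heart and 9.68, 10.50 and 9.78 in pup hippocampus. In adults it was 11.68 and 12.32 in heart and 11.53 and 10.35 in hippocampus. Hearts lay above the hippocampus of their own age, narrowly so in both ages. In pups the difference was 1.69, or 3.23-fold (SE 0.45, interval 0.69 to 2.69, limma adjusted p = 0.0325).

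The pup difference of Nppb lost its call in 10 of 22 alternative analyses. Among these, it was lost without pup hippocampus replicate 1 (adjusted p = 0.108) or 3 (0.0980) and without pup heart replicate 1 (0.0997) or 3 (0.0746), and with the 4 adult arrays as replicates (0.208). Between adult tissues the difference was 1.06 (interval -0.17 to 2.29, adjusted p = 0.202). Between ages it was 0.32 in heart (interval -0.80 to 1.44) and 0.95 in hippocampus (interval -0.17 to 2.07), with adjusted p of 0.695 and 0.228.

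The technical arrays of adult hippocampus replicate 1 gave 9.64 and 13.43 for Nppb, a distance of 3.79 that 0.464% of probe sets exceeded in that replicate. The adult heart arrays gave 11.25 and 12.11 for replicate 1 and 13.14 and 11.50 for replicate 2. With the first technical array of each adult replicate alone, the difference between adult tissues was 2.45 (adjusted p = 0.0215), and with the second alone it was -0.33. The adult values of Nppb thus depended on which array was read.

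Nppc, the C-type peptide made mostly by endothelium, brain and cartilage, was near the low end of the array. Its log2 expression value (1422790_at) was 6.22, 6.87 and 6.46 in pup heart, 7.16 and 7.61 in adult heart, 6.34, 6.94 and 6.49 in pup hippocampus, and 6.71 and 6.57 in adult hippocampus. Its group means stood at the 8.90 to 18.4 percentile of all probe sets. The first array of adult heart replicate 1 read 6.78, below pup hippocampus replicate 2. With technical arrays averaged, the adult hearts lay above all other samples. The difference from pup heart was 0.87 (interval 0.22 to 1.52, limma adjusted p = 0.0625) and that from adult hippocampus 0.75 (interval 0.03 to 1.46, adjusted p = 0.126), and neither passed. The age difference in heart passed without pup heart replicate 2 (1.05, adjusted p = 0.0331) and with the 4 adult arrays as replicates (adjusted p = 0.0284). The adult tissue difference was 0.42 with the first technical array alone (adjusted p = 0.490) and 1.07 with the second (adjusted p = 0.0410), and it passed with the 4 adult arrays as replicates (adjusted p = 0.0305). Between pup tissues the Nppc difference was -0.07 (interval -0.66 to 0.51) and between ages in hippocampus 0.05 (interval -0.60 to 0.70).

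Of the 3 receptors, only Npr3 had a called difference, in 1 of its 3 probe sets. Its brightest probe set, 1435184_at, had a log2 expression value of 9.10, 7.65 and 8.06 in pup heart and 7.71 and 7.86 in adult heart. It was 8.41, 8.67 and 8.52 in pup hippocampus and 8.96 and 9.23 in adult hippocampus. Adult heart lay below every hippocampus sample, whereas pup heart spread across most of the range.

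In adults, Npr3 1435184_at was 1.31 lower in heart than in hippocampus: the heart minus hippocampus difference was -1.31, a size of 2.48-fold (SE 0.41, interval -2.24 to -0.39, limma adjusted p = 0.0478). The call lay at the threshold and was lost in 13 of 21 alternatives. It was lost without any 1 of the 3 pup hippocampus samples (adjusted p = 0.0652, 0.0671 and 0.0664), of the 2 adult hippocampus samples (0.118 and 0.202) or of the 2 adult heart samples (0.180 and 0.138). In pups the tissue difference was -0.26 (interval -1.02 to 0.49, adjusted p = 0.678). Between ages it was -0.49 in heart (adjusted p = 0.402) and 0.56 in hippocampus (adjusted p = 0.347).

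The other 2 Npr3 probe sets did not show the difference. Group means of 1450286_at lay between 7.16 and 7.43 and those of 1448024_at between 6.67 and 7.16. Their differences between adult tissues were 0.07 (interval -0.51 to 0.66) and -0.13 (interval -0.87 to 0.61). Both intervals leave out the -1.31 of 1435184_at, but they overlap its own interval of -2.24 to -0.39. The probe sets of this gene were not tested against each other. The 2 were also dimmer, with group means at the 18.7 to 20.4 and the 8.64 to 17.4 percentile of all probe sets.

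Npr1, the receptor of ANP and B-type peptide, was not called in any comparison. Its log2 expression value (1449160_at) was 7.79, 8.34 and 10.04 in pup heart, 9.51 and 9.79 in adult heart, 8.95, 9.33 and 9.96 in pup hippocampus, and 8.84 and 8.87 in adult hippocampus. Pup heart replicate 3 stood well above the other pup hearts, so that pup heart overlapped every other group. The age difference was 0.93 in heart (interval -0.34 to 2.20, limma adjusted p = 0.285) and -0.55 in hippocampus (interval -1.83 to 0.72, adjusted p = 0.548).

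The Npr1 difference between tissues was -0.69 in pups (interval -1.83 to 0.45, adjusted p = 0.426) and 0.79 in adults (interval -0.60 to 2.18, adjusted p = 0.408). These values depended on pup heart replicate 3. Without it the age difference in heart was 1.58 (adjusted p = 0.0180), the pup tissue difference was -1.35 (adjusted p = 0.0213) and the interaction was 2.14 (adjusted p = 0.0442). The closeness of the adult hippocampus values (SD 0.02, n = 2) understated the array error, because the technical arrays of replicate 2 gave 10.74 and 7.00 and only their mean fell near the 8.52 and 9.16 of replicate 1.

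Npr2, the receptor of C-type peptide, was bright in every group, with group means at the 93.6 to 95.7 percentile of all probe sets. Its log2 expression value (1427191_at) was 14.89, 14.46 and 14.98 in pup heart, 13.96 and 14.08 in adult heart, 14.56, 14.59 and 14.55 in pup hippocampus, and 14.80 and 14.22 in adult hippocampus. Adult heart was lowest and did not overlap the other groups. The age difference in heart was -0.76 (interval -1.35 to -0.17, limma adjusted p = 0.0690) and the adult tissue difference -0.49 (interval -1.13 to 0.15, adjusted p = 0.258), and neither passed. Without pup heart replicate 2 the age difference in heart passed (-0.92, adjusted p = 0.0350). The 2 technical arrays of adult heart replicate 1 read 15.23 and 12.69, a distance larger than this difference.

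**Figure D3:**
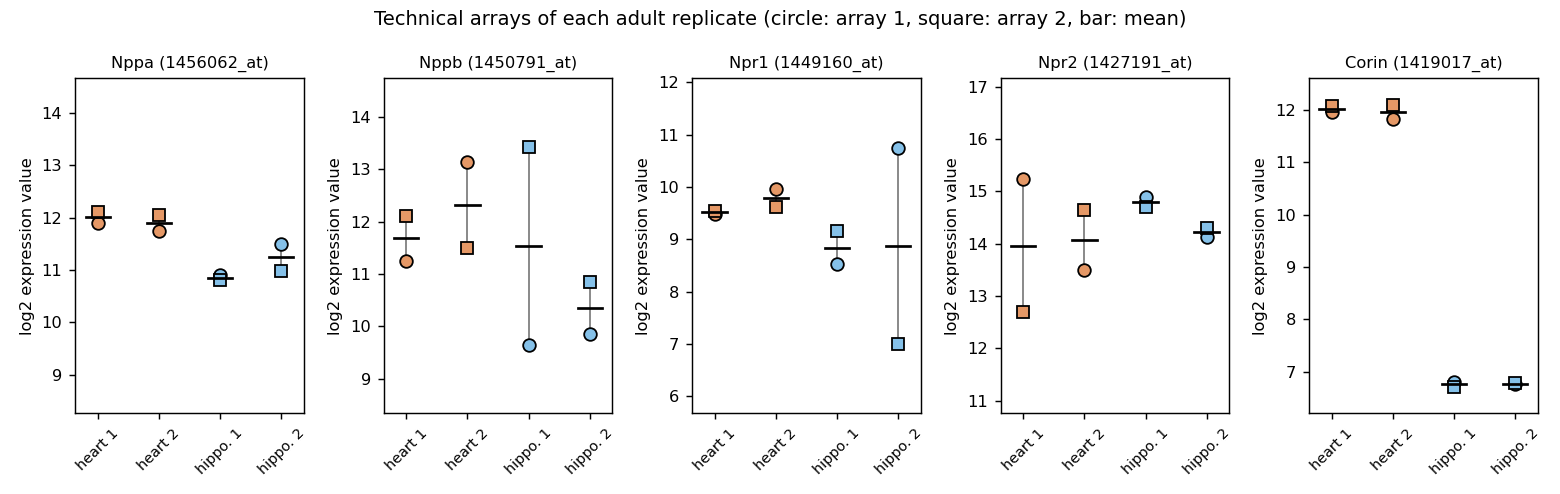
Log2 expression value (y axis) of 5 member probe sets on the 2 technical arrays of each adult replicate (x axis; circle for array 1, square for array 2, bar for their mean). Corin and Nppa arrays lay close together, whereas the arrays differed by 3.79 for Nppb in hippocampus replicate 1, 3.74 for Npr1 in hippocampus replicate 2 and 2.54 for Npr2 in heart replicate 1.

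Over all 9 probe sets and 4 adult replicates, 30 of 36 pairs of technical arrays differed by under 1, with a median of 0.27, and 3 differed by over 2. Those 3 were 1 each of Nppb, Npr1 and Npr2. For Corin, no pair differed by more than 0.27, and for Nppa by more than 0.52.

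Between pup tissues, 3 of 9 member probe sets were called, all higher in heart (Nppa, Nppb and Corin), where 14.3% of all probe sets were called in either direction. Between adult tissues 2 of 9 were called, Corin higher and Npr3 1435184_at lower in heart, where 22.2% of all were called, a share like that of the members. Between ages in hippocampus 0 of 9 were called by limma, where 14.9% of all probe sets were, and 0 had an unadjusted p under 0.05. The test that the methods of the study name called 0 of the 9 as well, and 4.19% of all probe sets. For the interaction 0 of 9 were called by limma, where 3.55% of all were, and 1, Nppa, had an unadjusted p under 0.05. The comparisons share samples, so their counts are not independent.

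**Figure D4:**
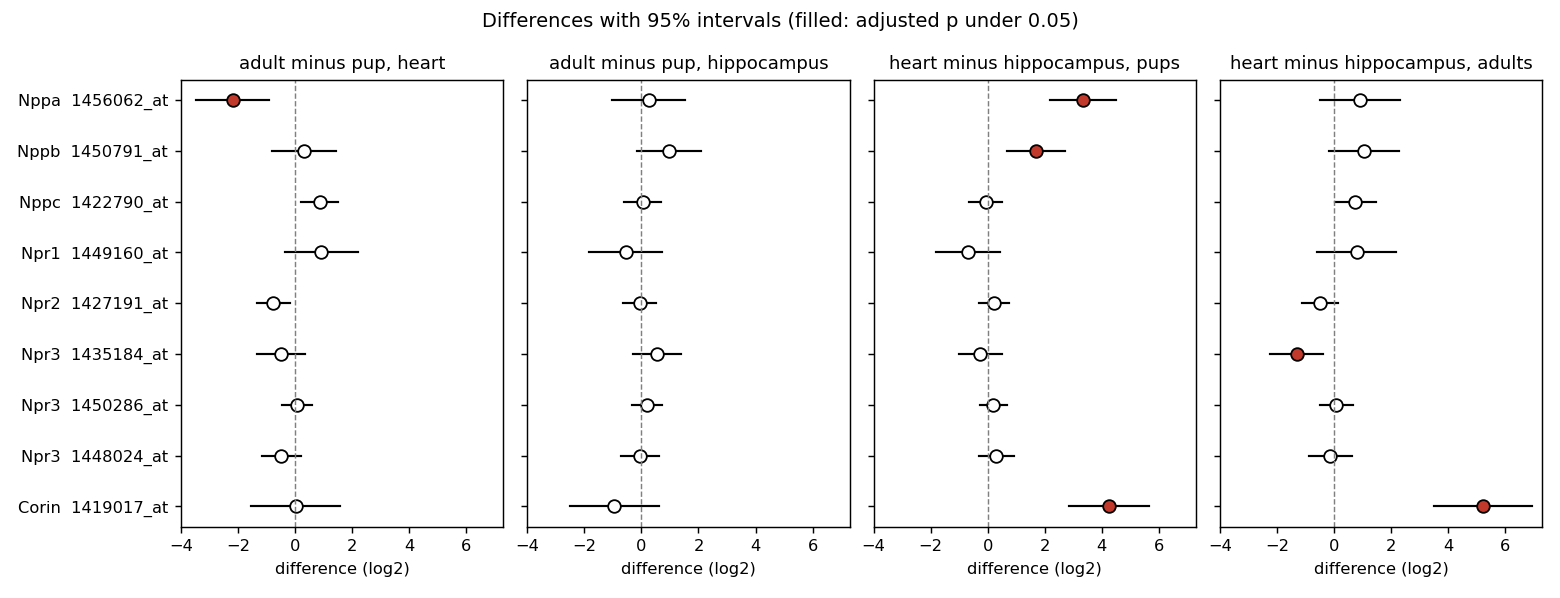
Difference in log2 expression value (x axis) of each member probe set (y axis) in the 4 comparisons, adult minus pup or heart minus hippocampus, with limma 95% intervals as lines; filled points had an adjusted p under 0.05. Filled points are Nppa in heart by age (-2.19), Nppa, Nppb and Corin between pup tissues (3.35, 1.69 and 4.26), and Npr3 1435184_at and Corin between adult tissues (-1.31 and 5.23).

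Other genes of the pathway were read with 1 probe set a gene, the brightest. Over all 18193 genes, 11.2% were higher and 9.33% lower in adult than in pup heart, and 8.45% were higher and 7.43% lower in adult hippocampus. Between tissues 7.24% were higher and 8.12% lower in heart in pups, and 10.8% were higher and 9.90% lower in adults.

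Genes of peptide processing and degradation were called in both directions. Of 12 measured, 1 was higher and 2 were lower in adult heart: Mmel1, a relative of neprilysin, was 2.79 higher (adjusted p = 0.00066), Ece1 (endothelin converting enzyme) fell by 2.20 (adjusted p = 0.00423) and Pam, an amidating enzyme abundant in atrial granules, fell by 1.65 (adjusted p = 0.00672). Furin, a proprotein convertase that cuts pro-BNP, was the 1 called in hippocampus and fell by 1.73 there. Heart was higher than hippocampus for 3 in pups and 2 in adults, including Mme (neprilysin, which degrades the peptides) at 1.08 and 1.16. The median difference of the list was -0.44 between ages in heart and 0.34 between adult tissues, beside 0.09 and 0.03 over all genes.

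Of 9 other genes of cGMP synthesis, 2 were lower in adult heart, Nos3 (endothelial nitric oxide synthase, -1.64) and Gucy1a1 (a subunit of the nitric oxide receptor, -1.59), and 0 were higher. The other 7 did not pass. The list as a whole did not fall, as its median difference between ages in heart was 0.59, beside 0.09 over all genes. Markers of vessels were called more often lower than higher. Of 14 endothelium and endocardium markers 4 were lower and 1 higher, and their mean was 11.00 to 11.24 in pup heart and 10.34 to 10.35 in adult heart. Of 8 smooth muscle markers 3 were lower and 1 higher, with a mean of 10.90 to 11.10 in pup heart and 10.23 to 10.31 in adult heart. Their part in the falls of Nos3 and Gucy1a1 was not tested. Of the 9 cGMP synthesis genes, 2 were higher and 0 lower in adult than in pup hippocampus. Between tissues, 1 of these 9 was higher in heart and 1 lower in pups, and 1 was higher and 3 were lower in adults. The cGMP targets, 12 measured, held 0 called genes between ages in heart by limma and 5 with an unadjusted p under 0.05, and the widest differences there were those of Ppp1r12a (0.87, adjusted p = 0.128) and Cnga1 (0.85, adjusted p = 0.0697). Pln (phospholamban, the brake of the calcium pump) was higher in heart than in hippocampus in pups (4.48) and adults (3.41), and Rgs4, a regulator of G protein signalling, was lower at both ages (-2.27 in pups). Prkg1, the cGMP-dependent kinase, was lower in adult heart than in adult hippocampus (-2.56). Vasp was higher in pup heart than in pup hippocampus (1.14). Relative to hippocampus, 2 targets were higher and 1 lower in pup heart, and 1 was higher and 2 were lower in adult heart. Ppp1r12a rose in hippocampus with age (1.42).

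Of 11 cGMP phosphodiesterases, 2 were higher and 0 lower in adult than in pup heart, Pde3a (1.40) and Pde11a (1.13). Pde1b was higher in adult than in pup hippocampus (1.19), and it was lower in heart than in hippocampus at both ages (-2.12 and -3.35). Pde3a was higher in adult heart than in adult hippocampus (1.82).

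Regulators known to act on Nppa and Nppb transcription, 19 genes, were called in both directions. In adult heart 2 were higher, Myocd (myocardin, 2.09) and Nfatc3 (0.97), and 4 were lower, Tbx20 (-2.19), Jarid2 (-1.25), Hand2 (-1.20) and Tbx3 (-1.07), of which Tbx3 and Jarid2 are known as repressors. In hippocampus, Nfatc3 was higher (1.27) and Tbx3 lower (-0.92) in adults. The Tbx3 probe set read 14.87 to 15.20 in pup heart and 14.69 to 14.97 in pup hippocampus. It was thus high on the array in both tissues, and its differences are not exact. Between pup tissues 4 were higher in heart, Ankrd1 (4.63), Tbx20 (1.44), Hand2 (1.29) and Gata4 (1.23), and Mef2c was lower (-1.67). Between adult tissues 3 were higher in heart, Ankrd1 (5.51), Myocd (3.29) and Gata4 (1.79), and 2 were lower, Mef2c (-1.36) and Srf (-1.28). Gata4, whose core letters are marked in the Nppa and Nppb sequences, was higher in heart at both ages. Gata6, another GATA gene, went the other way by value in adults, with 13.49 and 13.98 in heart and 14.84 and 14.60 in hippocampus. Nkx2-5, whose core is marked in the Nppa sequence, read 14.88 and 14.93 in adult heart and 14.67 and 13.87 in adult hippocampus. Neither Gata6 nor Nkx2-5 was among the genes called between adult tissues. In pups, heart and hippocampus overlapped for both Gata6 and Nkx2-5. Both also read high in hippocampus, Gata6 at 12.82 or above and Nkx2-5 at 13.47 or above, so their differences are not exact. The part of these genes in the Nppa and Nppb levels was not tested. The list's median difference was -0.06 between ages in heart and 0.14 between pup tissues, beside 0.09 and 0.10 over all genes.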

How the data were processed

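The deposited table held a log2 expression value for each of 45101 probe sets on 14 arrays. The authors took the upper decile of a set's probes with RMA 2.0, as the methods and the submitters' processing notes say. The stated centring and scaling were not seen in the deposited log2 values. How background was corrected is not given in the sources used here and detection calls were not used, so low values were not set against background. Control probe sets (64) were removed. Names came from the platform annotation: 34945 probe sets had 1 gene, 932 several and 9160 none. Technical arrays were averaged, giving 10 samples. A limma fit (3.58.1, R 4.3.3) with 4 group means (6 residual and 3.73 prior degrees of freedom) gave 5 two-sided contrasts, adjusted by Benjamini-Hochberg over 45037 probe sets. Precision is limited by how few arrays there were. The fit was tested on simulated data. Members and lists were chosen with earlier results of these data known. Named genes were all members, and up to 4 called genes of a list and contrast by size of difference. Alternatives were other scalings, arrays, filters, fits, the methods' t-test, a replicate block and leaving out each sample. Promoters were RefSeq windows.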

Additional observations from a re-analysis of the deposited data

How the results depend on the processing

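No called difference of a member changed direction. Without an adult sample its group held 1 sample, which was assumed to vary like the other groups. The count of called member probe sets between ages in heart was 1, and it became 2 with the 4 adult arrays as replicates, with technical array 2 only, with trend and robust moderation and with the replicate block, 3 with the mean over probe sets of a gene, and 0 with the 2 groups of the contrast only or the methods' t-test, and so also 0 at the stricter rate of the methods. It was 0 to 3 when 1 sample was left out: 3 without pup heart replicate 2, and 0 without adult heart replicate 1 or 2, where calls over all 45037 probe sets went from 9011 to 10260, 3303 and 4069. Between pup tissues 3 became 2 with the 4 adult arrays, with technical array 1 or 2 only, with the 2 groups only and with the replicate block, 0 with the methods' t-test, and 2 to 3 when 1 sample was left out. Between adult tissues 2 became 1 with brighter probe sets only, where Npr3 1435184_at was filtered out and so was not tested. The adult count was also 1 with 1 probe set a gene, with the mean over probe sets and with the replicate block. It was 3 with the 4 adult arrays or the 2 groups only, 0 with the methods' t-test, and 1 to 2 when 1 pup sample was left out. For the interaction 0 became 1 with the 4 adult arrays as replicates and 0 to 1 when 1 sample was left out, being 1 without pup heart replicate 2 (Nppa) or 3 (Npr1). In hippocampus the count between ages was 0 in all of these. The cause of these changes was not tested.

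Corin and Nppa kept their calls between pup tissues, and Corin between adult tissues, in 21 of 22 alternatives, the exception being the methods' t-test (adjusted p of 0.107, 0.108 and 0.0628). That test called 1938 of all 45037 probe sets between pup tissues, 1 between adult tissues and 1 between ages in heart, so few calls of any gene could be kept in the last 2. Whether replicate numbers pair the samples was not settled. In pups, correlations of same-numbered deviations were 0.197, -0.084 and 0.006, and those of different numbers lay between -0.156 and 0.160. In adults the value was -0.055, and it cannot decide, because 2 samples deviate from their mean by equal and opposite amounts. With the replicate block the calls of Nppb in pups (adjusted p = 0.0913) and Npr3 in adults (0.0776) were lost, and Npr1 between ages in heart was called (1.39, adjusted p = 0.0321). The median age difference in heart over all probe sets was 0.11 as deposited, 0.00 after quantile normalization and -0.03 after centring and scaling, and the Nppa difference there was -2.21 and -2.28.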

Other observations

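For each member, the genes with the nearest pattern over the 10 samples were found by the root mean square distance of log2 values after subtracting each gene's mean, among 16312 genes. This is a description of likeness and says nothing of shared function. Nearest to Corin were 2 muscle genes and a gene of fatty acid oxidation: Des (desmin, 0.75), Myl3 (a ventricular myosin light chain, 0.75) and Hadhb (0.79), with a median distance of 2.48 over all genes. Des averaged 12.32 in both pup and adult heart, 8.21 in pup hippocampus and 7.91 in adult hippocampus, and its differences were not tested here. Nearest to Nppa were Tstd2 (0.34), Acot2 (0.38) and Gask1b (0.43), with a median of 1.61. Acot2, a mitochondrial thioesterase, averaged 13.75 in pup heart, 11.94 in adult heart, and 10.44 and 10.58 in pup and adult hippocampus. Nearest to Npr3 1435184_at was Bbs4 (0.13), with a median of 0.82.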
